A study of Mus musculus with 12 samples.

Results

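The data compare hepatocytes with and without Fxr in cultures that received AC and no FAC. The members are the 6 AC libraries, 3 of Fxr-/- cells (KO AC) and 3 of wild-type cells (WT AC), chosen by their genotype and treatment labels out of 12 libraries in all. Every library was made from total RNA of primary hepatocytes isolated from the liver of C57BL/6 mice, plated in DMEM with serum, and exposed to AC or FAC at 100 µM for 24 h. The labels give AC and FAC only as abbreviations, and the series title names iron overload as the study's subject. All 4 groups were cultured in the same medium, so WT AC and KO AC share everything in the labels but the genotype. The labels name no substrain, sex or age of the mice, do not say how the Fxr-/- allele was made or whether the controls were littermates, and leave it unsaid if separate animals or cultures stand behind the 3 libraries per group. The p-values therefore measure only the spread between these samples, which may be technical.

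Fxr, the product of Nr1h4, is a nuclear receptor for bile acids that works mostly as a partner of the retinoid X receptor on paired copies of a short DNA half-site. In hepatocytes it is known to raise the bile salt export pump and the repressor Shp (Nr0b2), to hold down bile acid synthesis and uptake, and to shape lipid, glucose and plasma protein genes. Loss of Fxr in the mouse is known for raised bile acids and altered lipoproteins. The best known Fxr site is an inverted repeat of the half-site AGGTCA with 1 base between the copies, written here as AGGTCANTGACCT and read on both strands, which are the same for a perfect repeat. Promoters of 300 bases (250 before and 50 after each annotated start, RefSeq on GRCm38.p6) were searched with at most 1 mismatch in the 12 letters compared. Of 32851 promoters, 27 held such a match (0.0822%). A gene is called where its adjusted p in edgeR was under 0.05, which held for 42.9% of the 12275 tested genes. Among tested genes with a promoter in the table, a match stood in 2 of 2110 genes higher in KO AC, 3 of 2070 lower and 5 of 5673 not called. The genes with a match that were higher were Slco1b2 and Rdh9, and those lower were Abcb11, Rarg and Steap3. A match is a description of the letters, and binding was not measured. The promoters of the pair of bile acid transporter genes among them are shown because these genes moved in opposite directions. Capitals mark the match. For Abcb11 it starts 63 bases before the gene start (chr2:69342567-69342866, minus strand). For Slco1b2 it starts 88 bases before the start used in the search (chr6:141629268-141629567, plus strand). The RefSeq gene start of Slco1b2, at 141629452, lies within the promoter shown but differs from the start used.
Abcb11: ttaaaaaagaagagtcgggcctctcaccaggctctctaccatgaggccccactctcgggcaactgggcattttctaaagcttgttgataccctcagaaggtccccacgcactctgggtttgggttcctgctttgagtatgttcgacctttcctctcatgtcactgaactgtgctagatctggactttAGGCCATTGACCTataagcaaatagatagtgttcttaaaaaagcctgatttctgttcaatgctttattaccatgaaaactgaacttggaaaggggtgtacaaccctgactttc
Slco1b2: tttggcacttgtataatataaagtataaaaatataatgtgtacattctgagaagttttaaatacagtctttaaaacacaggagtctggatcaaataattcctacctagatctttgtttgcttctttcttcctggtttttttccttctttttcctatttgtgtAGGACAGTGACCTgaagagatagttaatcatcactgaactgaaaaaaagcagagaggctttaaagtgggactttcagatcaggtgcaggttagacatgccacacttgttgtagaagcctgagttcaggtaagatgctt

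The 6 libraries held 17071190 to 18335700 estimated reads and 14249 to 14405 genes with at least 1 read. Levels are given as CPM, counts per 1000000 reads of the library after edgeR scaling, always in the order of libraries 1, 2 and 3 of each group. Nr1h4 itself (chromosome 10, 89454234 to 89533645, GRCm38.p6) read 13, 15.6 and 13.1 CPM in WT AC and 9.35, 6.97 and 7.45 CPM in KO AC. It was lower in all 3 KO AC libraries, with a remaining level of 0.57 of WT AC (log2 fold change -0.81 ± 0.14, adjusted p = 0.000535). Here and below ± on a log2 fold change (KO AC over WT AC) is a standard error, with 3 libraries per group. The counts cover the whole gene, so they do not show whether a deleted part is missing from the remaining transcripts. The first principal component of the 6 libraries, with 76.3% of the variance, separated the genotypes, with WT AC at -42.9, -36.9 and -37.6 and KO AC at 38.4, 41.2 and 37.7. The library KO AC 1 stood apart on the second component (10.2%), at -27 against 13.7 and 13.5 for the other KO AC libraries. Results that rest on it are given with and without it.

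The labelled cell type was checked against marker lists. Of 24 hepatocyte marker genes in the table every one had reads, and their summed level was 40639 to 43821 CPM in WT AC and 45759 to 49498 CPM in KO AC. Albumin (Alb), the main plasma protein of hepatocytes, was the most abundant of them and slightly lower in KO AC, at 19921, 20934 and 20433 CPM in WT AC and 18862, 17988 and 17729 CPM in KO AC (log2 fold change -0.17 ± 0.04, adjusted p = 0.00773). Traces of other liver cells were present at much lower levels, and several fell in KO AC. Of 21 Kupffer cell and macrophage markers, 13 were lower in KO AC without overlap of the libraries (over all tested genes 53.0% did not overlap), 1 was higher and 1 was at 0 in all 6 libraries. Their sum was 460 to 539 CPM in WT AC and 624 to 736 CPM in KO AC. Most of it was Cd68, a lysosomal protein, which rose (343, 419 and 398 CPM in WT AC and 554, 687 and 650.4 CPM in KO AC), and the iron exporter Slc40a1, which hepatocytes also express. Without this pair the sum of the 19 other macrophage markers was 14.1 to 18.7 CPM in WT AC and 1.80 to 3.38 CPM in KO AC. Lyz2, the lysozyme of macrophages, read 3.33, 4.33 and 2.9 CPM in WT AC and 0.746, 0.277 and 0.233 CPM in KO AC (log2 fold change -3.05 ± 0.46, adjusted p = 0.000167), and Adgre1, which encodes the macrophage surface protein F4/80, read 2.34, 2.38 and 1.97 CPM in WT AC and 0.516, 0.221 and 0.233 CPM in KO AC (log2 fold change -2.76). The integrin gene Itgam (log2 fold change -3.94 ± 0.62) and Fcer1g, the shared chain of Fc receptors (-3.44 ± 0.49), also fell. The mannose receptor Mrc1 had 34 reads over the 3 WT AC libraries and 2 over the KO AC libraries, a ratio of 16.3 with a 95% counting interval of 4.17 to 140.0.

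Stellate cell and fibroblast markers summed to 75.5 to 84.9 CPM in WT AC and 40.7 to 42.1 CPM in KO AC, and without Ecm1, the most abundant of them, to 18.6 to 22.4 and 8.78 to 8.90 CPM. Of 18 such markers 9 were lower without overlap and 0 were higher, while 53.0% of all tested genes did not overlap in either direction. Only 9 of the 18 were tested, and 7 of these were called lower (over all tested genes 42.9% were called). The proteoglycan decorin (Dcn) read 2.78, 2.76 and 1.92 CPM in WT AC and 0.0574, 0.111 and 0.175 CPM in KO AC (log2 fold change -4.36 ± 0.41, adjusted p = 2.47e-06), and the collagen gene Col1a1 read 1.69, 1.51 and 1.86 CPM in WT AC and 0.229, 0.111 and 0.116 CPM in KO AC (log2 fold change -3.41 ± 0.58, adjusted p = 0.000437). Reads of Col3a1 numbered 88 in WT AC and 2 in KO AC (ratio 42.1, 95% counting interval 11.3 to 353), and reads of Col1a2 numbered 74 and 3 (ratio 23.6, interval 7.76 to 117). Sinusoidal endothelial markers summed to 90.8 to 97.5 CPM in WT AC and 87 to 101 CPM in KO AC, and split. Of 19 in the table, 10 were lower without overlap and 3 were higher. The junction genes Cdh5 (log2 fold change -1.82 ± 0.20, adjusted p = 1.2e-05) and Pecam1 (-1.52) and the receptor Kdr (-2.15 ± 0.45) fell. The phosphatase Ptprb, with 20 reads against 3, was lower in edgeR (-2.53 ± 0.70), but was not called with limma on log2(FPKM + 0.1) (adjusted p = 0.181), log2(FPKM + 1) (0.5) or log2(TPM + 1) (0.418). The scavenger receptor Stab2 rose (5.89, 6.82 and 5.31 CPM in WT AC and 16.2, 13 and 16.3 CPM in KO AC). Emcn, an endothelial sialomucin, was lower at -2.14 ± 0.68 (adjusted p = 0.0213), a call lost without KO AC 2 (0.0797), KO AC 3 (0.0716) or WT AC 1 (0.0806). Cholangiocyte and progenitor markers summed to 435 to 457 CPM in WT AC and 158 to 162 CPM in KO AC. The most abundant of them was the secreted protein Spp1, osteopontin, which fell from 355, 363 and 366 CPM to 61, 49.6 and 46.1 CPM (log2 fold change -2.79 ± 0.10, adjusted p = 8.38e-11). Without Spp1 the other 17 markers summed to 80.2 to 91.7 CPM in WT AC and 101 to 113 CPM in KO AC, with Prom1 at 1.85 ± 0.12, Dlk1 at 2.21 ± 0.61 and Cldn7 at 1.70 ± 0.51 higher. The call of Cldn7, a tight junction gene, was lost without WT AC 3 (adjusted p = 0.064). Markers of T, NK and B cells summed to at most 0.332 CPM in any of the 6 libraries, and none of the 7 in the table was tested. Among them Cd8a read 0.0545, 0.216 and 0.219 CPM in WT AC and 0.0574, 0.166 and 0.116 CPM in KO AC, and Cd79a had 0 reads in WT AC and 4 in KO AC. Of 11 neutrophil and erythroid markers 3 were at 0 in all 6 libraries. The sum of 3.01 to 3.89 CPM in WT AC and 14.1 to 19.2 CPM in KO AC was mostly Alas2, the erythroid form of the first haem enzyme (3.05, 2.87 and 2.57 CPM in WT AC and 19.1, 18.5 and 13.9 CPM in KO AC). In bulk libraries, fewer cells of a type and less RNA per cell cannot be told apart, and the part of other cells in the results below was not tested unless a value is given.

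**Figure D1:**
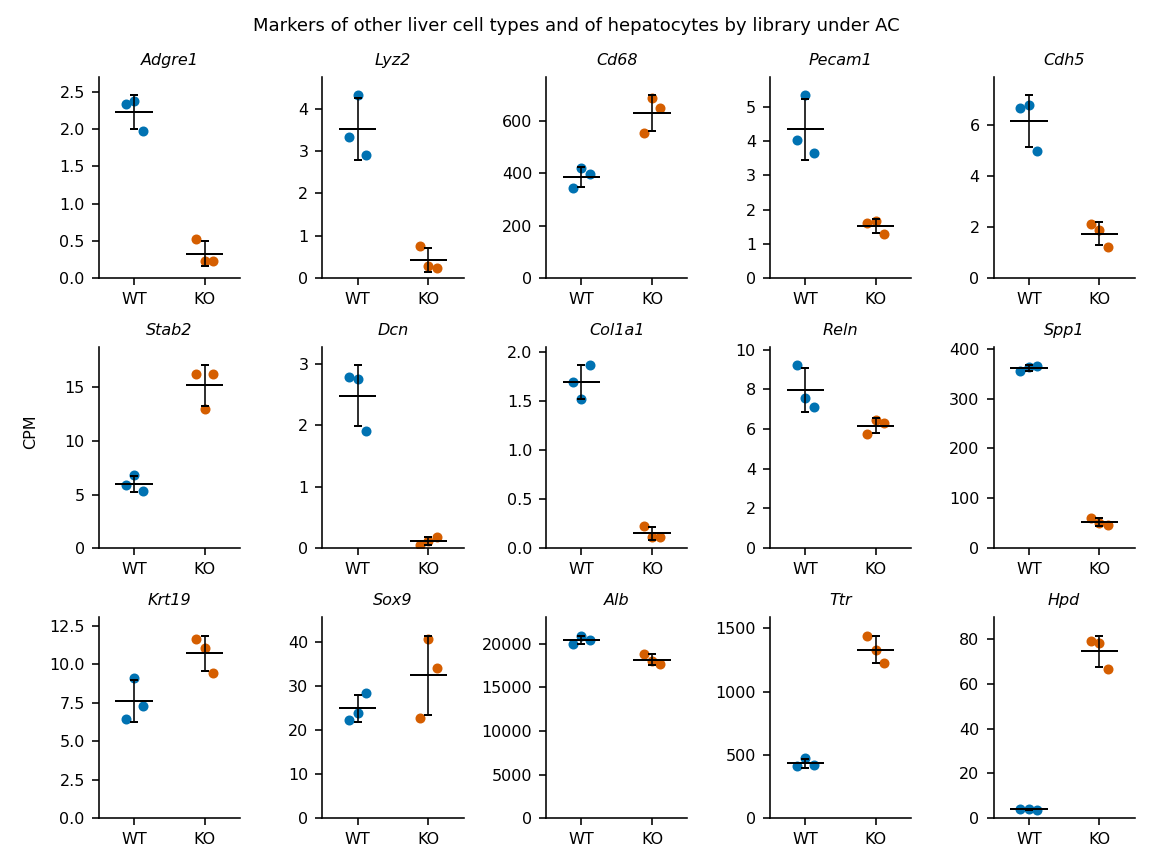
Level in CPM (vertical axis, from 0) of 15 marker genes in the 3 WT AC (blue) and 3 KO AC (orange) libraries, with the mean as a line and the SD as an error bar. Adgre1, Lyz2, Pecam1, Cdh5, Dcn, Col1a1 and Spp1 were lower in every KO AC library, Cd68, Stab2, Ttr and Hpd were higher, and Alb differed little.

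Under AC the Fxr-/- libraries differed from wild type across much of the transcriptome. Of 12275 tested genes, 5265 (42.9%) differed at an adjusted p under 0.05 in edgeR, 2667 (21.7%) higher in KO AC and 2598 (21.2%) lower. Most of these differences were small, with a median absolute log2 fold change of 0.281 over all tested genes. A change of at least 2-fold was called for 1253 genes (10.2%), and here higher genes prevailed, at 802 (6.53%) against 451 (3.67%). More than 16-fold changes were called for 51 genes. The libraries of the groups did not overlap for 6502 genes (53.0%). The median log2 fold change over all genes was -0.0033. Gene lists below are read against these shares, and their members were not tested as sets. With FPKM and TPM values, fitted without TMM scaling, the balance of calls shifted toward lower genes. Of the called genes 37.9% were higher with limma on log2(FPKM + 1) and 32.2% on log2(TPM + 1), against 50.7% in the count test. The median log2 fold change over all genes was -0.0665 and -0.109 in these limma fits.

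**Figure D2:**
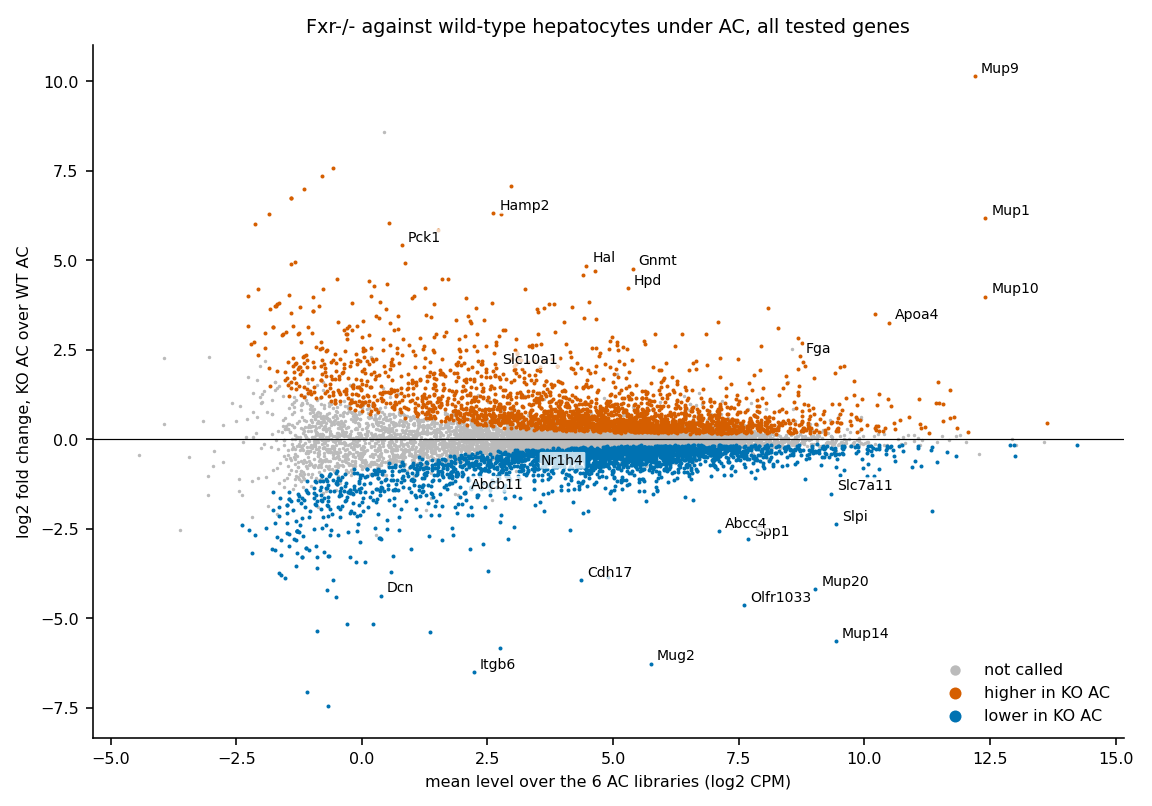
Mean level over the 6 AC libraries (log2 CPM, horizontal) against the log2 fold change of KO AC over WT AC (vertical) for all 12275 tested genes. Orange points are the 2667 genes called higher, blue points the 2598 called lower, grey points were not called, and Mup9 at 10.14 and Mup14 at -5.65 stand among the abundant genes with large changes.

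**Figure D3:**
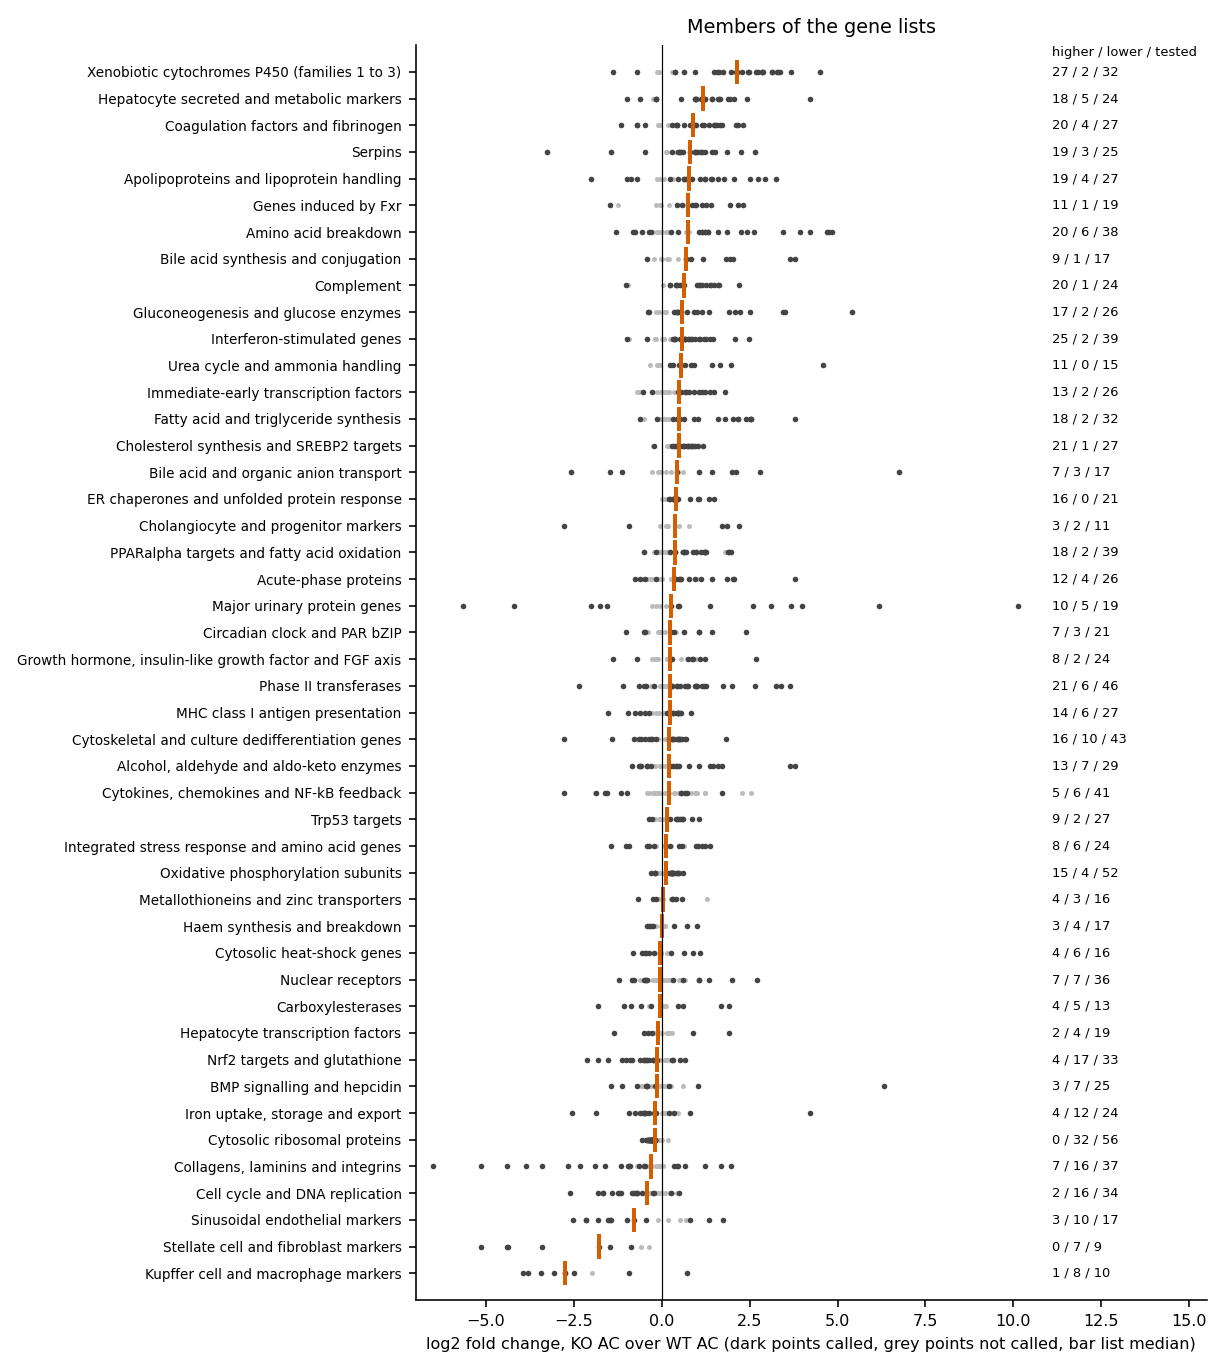
Log2 fold change of KO AC over WT AC (horizontal) for each tested member of the gene lists with at least 5 tested genes, ordered by the list median (orange bar), with called members dark and the numbers higher, lower and tested at the right. Cytochromes P450 stood at the top with a median of 2.14 and macrophage markers at the bottom with -2.76. Values of genes with no read in a group, such as Slco1a4, depend on the prior count of the fit.

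The genes that Fxr is known to induce did not fall together. Of 19 tested, 11 were higher in KO AC, 1 was lower and 7 were not called (median log2 fold change 0.74). The lower gene was Abcb11, the bile salt export pump and the classic Fxr target, whose promoter is shown above. It read 6.93, 5.84 and 5.53 CPM in WT AC and 2.52, 2.16 and 1.86 CPM in KO AC, with no overlap and a 2.79-fold lower mean (log2 fold change -1.48 ± 0.19, adjusted p = 4.7e-05). Nr0b2, which encodes the repressor Shp, was close to the detection limit at 0.818, 1.3 and 0.985 CPM in WT AC and 0.918, 0.221 and 0.175 CPM in KO AC, where only KO AC 2 and KO AC 3 lay below the wild-type libraries. Its log2 fold change of -1.23 ± 0.63 was not called (adjusted p = 0.132). Without KO AC 1 it was -2.34 with an adjusted p of 0.018, and limma on log2(FPKM + 1) called it with all libraries (0.0272). The phospholipid pump Abcb4 read 125, 136 and 111 CPM in WT AC and 253, 149 and 165 CPM in KO AC. KO AC 1 was highest and the groups did not overlap, but the difference was not called (log2 fold change 0.60 ± 0.33, adjusted p = 0.165; log2 fold change 0.33 without KO AC 1), except in a fit of the 6 AC libraries alone (adjusted p = 0.0299). Slc51b, a subunit of the bile acid exporter of the basolateral membrane, had 1 read in each WT AC library and 0 in KO AC and was not tested.

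The induced genes that were higher encode mostly secreted and metabolic proteins. The fibrinogen chains Fga and Fgg rose most. Fga read 132, 159 and 129 CPM in WT AC and 779.8, 682 and 636 CPM in KO AC (log2 fold change 2.32 ± 0.13, adjusted p = 1.75e-08), and Fgg read 146, 181 and 150.0 CPM in WT AC and 847, 662 and 633 CPM in KO AC (log2 fold change 2.17 ± 0.14, adjusted p = 1.33e-07). Every KO AC library lay more than 3-fold above every WT AC library for both chains. The third chain, Fgb, rose less, at 573, 707 and 595 CPM in WT AC and 1390.0, 1169 and 1082 CPM in KO AC (log2 fold change 0.96 ± 0.13, adjusted p = 0.000137). Slc27a5, the bile acid CoA ligase of the conjugation step, read 43.2, 42.4 and 37.6 CPM in WT AC and 161, 159.6 and 157 CPM in KO AC (log2 fold change 1.96 ± 0.08, adjusted p = 2.45e-10). Others were the phospholipid transfer protein Pltp (1.39), the pyruvate dehydrogenase kinase Pdk4 (1.25), kininogen Kng1 (1.14), the lipoprotein receptor Vldlr (0.98), apolipoprotein Apoc2 (0.85) and complement C3 (0.59).

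Bile acid synthesis and conjugation genes were mostly higher, with 9 of 17 higher, 1 lower and a median log2 fold change of 0.70. The rate-limiting enzyme Cyp7a1 was near absent, with 0 reads in WT AC and 5 in KO AC, and was not tested. Cyp8b1, the sterol 12-hydroxylase that sets the share of cholic acid, read 1.58, 1.35 and 1.09 CPM in WT AC and 8.26, 3.49 and 2.56 CPM in KO AC. All KO AC libraries were above all WT AC libraries, but KO AC 1 was more than 2-fold above the others of its group. The difference (log2 fold change 1.82 ± 0.62, adjusted p = 0.0364) fell to 1.17 without KO AC 1 (adjusted p = 0.159). The call was also lost without WT AC 1 (0.0854), WT AC 2 (0.0904) or WT AC 3 (0.0983), with no filter (0.0712) and with limma on log2(FPKM + 1) (0.091). Cyp27a1, the mitochondrial enzyme of the alternative pathway, rose tightly from 65.4, 70.4 and 65.4 to 113, 108 and 105 CPM (log2 fold change 0.69 ± 0.06, adjusted p = 2.24e-06). Cyp7b1, the next enzyme of that pathway, was not called (log2 fold change 0.16 ± 0.10, adjusted p = 0.187). The reductases of the steroid nucleus changed most. Akr1c6 went from 0.818, 0.865 and 0.711 to 13.3, 11.5 and 8.84 CPM (13.9-fold, log2 fold change 3.80 ± 0.20, adjusted p = 5.9e-09), and Akr1d1 went from 0.273, 0.0541 and 0.274 to 2.41, 3.1 and 2.27 CPM (log2 fold change 3.65 ± 0.36, adjusted p = 3.89e-06). Cyp2a12 (2.02 ± 0.11), Cyp2c70 (1.18), which makes muricholic acids in mice, Scp2 (0.84) and Hsd3b7 (0.70) were higher. The oxysterol hydroxylase Cyp39a1 was lower (-0.43).

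Most carriers that take up bile acids and organic anions from the blood rose. Slc10a1, the sodium-dependent bile acid importer, read 2.62, 2.76 and 2.3 CPM in WT AC and 11.4, 9.46 and 9.77 CPM in KO AC (log2 fold change 1.99 ± 0.14, adjusted p = 9.84e-08), and Slco1b2 read 1.2, 2.06 and 0.875 CPM in WT AC and 7.4, 4.76 and 5.64 CPM in KO AC (log2 fold change 2.10 ± 0.28, adjusted p = 5.91e-05). Slco2b1 rose from 1.04, 1.35 and 0.492 to 6.25, 7.69 and 6.17 CPM (log2 fold change 2.79 ± 0.26, adjusted p = 2.3e-06). Slco1a4 had 0 reads in WT AC and 40 in KO AC, at least 13.9-fold higher against a floor of 3 reads over the group. Slco1a1, an anion importer (0.26), and Slc22a7 (-0.10) were not called. Among exporters, Abcb11 and the conjugate pump Abcc2 (-1.12) of the canalicular membrane fell. Abcg8, a subunit of the canalicular sterol pump, rose (1.07). Abcc4, an exporter of the blood side, fell from 253, 219 and 237 to 40.1, 34.6 and 44.8 CPM (5.93-fold, log2 fold change -2.57 ± 0.11, adjusted p = 4.35e-10). Its neighbour in function Abcc3 rose by 0.43. In all, 7 of 17 tested carriers were higher and 3 lower (median 0.43).

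**Figure D4:**
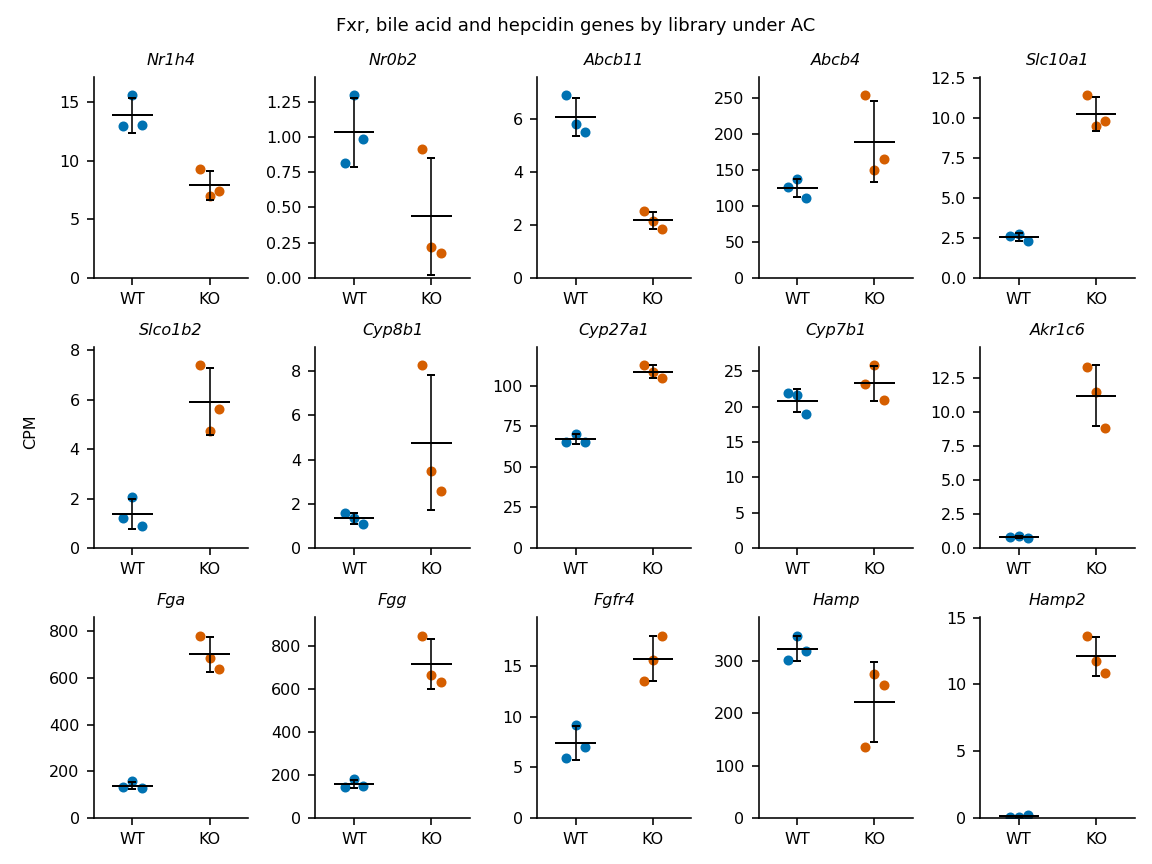
Level in CPM (vertical axis, from 0) of Nr1h4, bile acid genes, fibrinogen chains and hepcidin genes in the 3 WT AC (blue) and 3 KO AC (orange) libraries, with the mean as a line and the SD as an error bar. Abcb11 and Nr1h4 were lower and Slc10a1, Slco1b2, Akr1c6, Fga, Fgg and Hamp2 higher in every KO AC library, and KO AC 1 was the highest point of Abcb4 and Cyp8b1 and the lowest KO AC point of Hamp.

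Genes of the growth hormone and FGF axes included the receptor through which FGF15 reaches hepatocytes. Fgfr4 read 5.94, 9.2 and 7 CPM in WT AC and 13.5, 15.6 and 18 CPM in KO AC and rose (log2 fold change 1.09 ± 0.19, adjusted p = 0.000491). Its co-receptor Klb read 1.04, 0.974 and 0.985 CPM in WT AC and 2.12, 0.775 and 0.64 CPM in KO AC, with KO AC 1 above and the other KO AC libraries below wild type (log2 fold change 0.24 ± 0.53, adjusted p = 0.745). Without KO AC 1 the log2 fold change of Klb was -0.49 and was not called. In the axis as a whole 8 of 24 genes were higher and 2 lower (median 0.24), a called share of 41.7% against 42.9% over all tested genes. Prlr, the prolactin receptor, rose most, from 3.05, 3.89 and 2.63 to 22.4, 21.8 and 17.1 CPM (log2 fold change 2.68 ± 0.15, adjusted p = 1.11e-08). The hormone Fgf21 (1.22 ± 0.30), the growth factor Igf1 (0.89), the cytokine feedback gene Cish (0.87) and the growth hormone receptor Ghr (0.74) were higher. The insulin receptor substrate Irs1 was lower (log2 fold change -1.38 ± 0.41, adjusted p = 0.0158), a call lost without KO AC 2 (0.0674).

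Iron genes were more often lower than higher, with 12 of 24 lower, 4 higher and a median of -0.20. Tfrc, the transferrin receptor, read 93.4, 83.6 and 74.1 CPM in WT AC and 67.1, 50.4 and 64.2 CPM in KO AC (log2 fold change -0.47 ± 0.16, adjusted p = 0.029). Its groups did not overlap, but the call was lost without KO AC 2 (adjusted p = 0.115), WT AC 1 (0.111) or WT AC 2 (0.0622). The ferrireductases moved apart. Steap2 fell from 33.7, 27.2 and 29.6 to 3.79, 5.15 and 6.57 CPM (log2 fold change -2.54 ± 0.31, adjusted p = 8.19e-05), and Steap1 fell (log2 fold change -1.88 ± 0.21). Cybrd1 rose from 0.818, 1.08 and 0.985 to 24, 13.8 and 15.9 CPM (18.5-fold, log2 fold change 4.21 ± 0.50, adjusted p = 8.19e-05). Slc40a1, ferroportin, the only known cellular iron exporter, fell from 102, 101 and 104 to 67.1, 46 and 49.3 CPM (log2 fold change -0.92 ± 0.19, adjusted p = 0.00211). Macrophages also express it. The 19 macrophage markers other than Cd68 and Slc40a1 summed to 14.1 to 18.7 CPM in WT AC and 1.80 to 3.38 CPM in KO AC. The part of macrophages in the fall of Slc40a1 was not tested. The plasma carriers ceruloplasmin Cp (-0.77), haptoglobin Hp (-0.61), haemopexin Hpx (-0.48) and transferrin Trf (-0.16) were lower. The second transferrin receptor Tfr2 was higher (0.81), and the ferritin heavy chain Fth1 was not called (0.02).

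Hepcidin, the hormone that removes ferroportin, is encoded in the mouse by Hamp and a near-identical copy, Hamp2. Hamp read 302, 348 and 319 CPM in WT AC and 135, 275 and 253 CPM in KO AC. The highest KO AC library was below the lowest WT AC library, but KO AC 1 was far below the others and the difference was not called (log2 fold change -0.54 ± 0.36, adjusted p = 0.25), nor was it without KO AC 1 (log2 fold change -0.29). Hamp2 went from 0.109, 0.108 and 0.219 to 13.7, 11.7 and 10.9 CPM (log2 fold change 6.31 ± 0.27, adjusted p = 7.51e-10). Because reads of near-identical genes can be split between them in counting, both were also summed, and the difference of the sum was not called (log2 fold change -0.47 ± 0.30, adjusted p = 0.236). The sum read 302, 348 and 319 CPM in WT AC and 149, 287 and 264 CPM in KO AC, without overlap. It was mostly Hamp in every library, so it cannot show whether the reads of Hamp2 were assigned to the right copy. Of the 25 tested genes of BMP signalling and hepcidin 3 were higher and 7 lower (median -0.14). Their called share was 40.0%, against 42.9% over all tested genes. The BMP target Id1 fell from 42.7, 49.2 and 44.2 to 19.8, 14 and 16.5 CPM (log2 fold change -1.44 ± 0.16, adjusted p = 1.1e-05), and Id2 from 51, 57.6 and 48.5 to 18.1, 28.5 and 24.8 CPM (log2 fold change -1.14 ± 0.28, adjusted p = 0.00821). The ligand Bmp6 (-0.45), made mainly by endothelial cells, and the haemochromatosis gene Hfe (-0.69) were lower. Tmprss6, the protease that restrains hepcidin, rose from 77.8, 87.4 and 89.8 to 179, 167 and 174 CPM (log2 fold change 1.03 ± 0.09, adjusted p = 1.3e-06). Haem enzymes moved little: of 17 tested, 3 were higher and 4 lower (median 0.01, of the other sign in 3 of the alternative scalings). That was 41.2% called, close to the share over all tested genes. The first enzymes of the pathway rose, Alas1 by 0.73 ± 0.09 and Alad by 0.99 ± 0.10. Biliverdin reductase Blvrb (-0.42 ± 0.07) and the haem transporter Slc48a1 (-0.37 ± 0.06) fell.

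The plasma proteins that hepatocytes secrete were largely higher. Of 24 hepatocyte markers 18 were higher and 5 lower (median 1.17), of 27 coagulation genes 20 and 4 (0.88), of 24 complement genes 20 and 1 (0.62), of 25 serpins 19 and 3 (0.80), and of 27 apolipoprotein and lipoprotein genes 19 and 4 (0.76). These lists share some genes.

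Among the markers, transthyretin (Ttr) read 411, 472 and 417 CPM in WT AC and 1442, 1325 and 1227 CPM in KO AC (log2 fold change 1.62 ± 0.07, adjusted p = 1.43e-09) and the asialoglycoprotein receptor Asgr1 20.7, 29.2 and 25 CPM in WT AC and 105, 94.5 and 89.1 CPM in KO AC (log2 fold change 1.95 ± 0.15, adjusted p = 5.9e-07). Apoa2, a protein of high-density lipoprotein, rose from 283, 328 and 291 to 1366, 1194 and 1204 CPM (log2 fold change 2.06 ± 0.08, adjusted p = 1.48e-10), and tyrosine aminotransferase (Tat) from 2.94, 2.98 and 2.13 to 15.4, 14.3 and 13.3 CPM (log2 fold change 2.42 ± 0.15, adjusted p = 4.19e-08). The 5 lower markers were Apob (-0.99), Hp, Alb, Trf and Ambp (-0.16). Of this list 3 were called lower without KO AC 2, KO AC 3, WT AC 2 or WT AC 3. For apolipoproteins, Apoa4 had the largest change, from 238, 296 and 283 to 2575, 2593 and 2675 CPM (log2 fold change 3.26 ± 0.08, adjusted p = 2.66e-12). Apoc4 (2.95 ± 0.18) and the cholesterol acyltransferase Lcat (2.53 ± 0.11) were also among the larger changes. Apoa1 (1.24), Apoc3 (1.77) and Apom (1.61) also rose, while lipoprotein lipase Lpl (-2.01) and the sterol exporter Abca1 (-0.71) fell.

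In coagulation, Fga and Fgg led and were followed by protein Z (Proz, 2.11 ± 0.18) and the fibrinogen-like hepatokine Fgl1, which read 228, 256 and 238 CPM in WT AC and 861, 769.8 and 719 CPM in KO AC (log2 fold change 1.70 ± 0.08, adjusted p = 1.78e-09). Factors F7 (1.20) and F10 (1.56) and plasminogen Plg (1.5) were higher. The tissue factor pathway inhibitor Tfpi (-1.15) and factor F11 (-0.71) were lower. In complement, the pore component C8a rose from 32.4, 30.7 and 28.6 to 90.5, 93.9 and 93.8 CPM (log2 fold change 1.60 ± 0.08, adjusted p = 2.22e-09). The factor H related gene Cfhr2 (1.48 ± 0.09) and the lectin Mbl1 (1.63 ± 0.15) also rose. Factor B (Cfb) was the only member called lower (-1.02). Among serpins, Serpina3m rose from 13.4, 14.9 and 12.1 to 94.6, 84.1 and 77 CPM (log2 fold change 2.66 ± 0.12, adjusted p = 7.65e-10), Serpina3n from 59.1, 70 and 58.2 to 320.4, 287 and 282 CPM (log2 fold change 2.25 ± 0.09, adjusted p = 2.74e-10) and the cortisol-binding globulin Serpina6 by 1.84 ± 0.17. Serpinh1, the collagen chaperone, fell from 2.62, 2.92 and 2.79 to 0.172, 0.221 and 0.465 CPM (log2 fold change -3.25 ± 0.40, adjusted p = 3.22e-05). Any link with the fall of the collagen genes above was not tested. The acute-phase list was mixed, with 12 of 26 higher and 4 lower (median 0.34). The acid glycoprotein Orm3 (3.79 ± 0.12), the inter-alpha inhibitor chains Itih3 (2.05 ± 0.06) and Itih4 (2.03 ± 0.07) and serum amyloid Saa2, which read 282, 319.9 and 285 CPM in WT AC and 1174, 1081 and 963 CPM in KO AC (1.86 ± 0.08), were higher. Hp, Hpx and Cp were lower.

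The major urinary proteins (Mups), pheromone carriers secreted by the mouse liver from a cluster of near-identical genes, included the largest rise in the data. Mup9 rose from 8.72, 8.01 and 8.04 to 10347, 9537 and 8161 CPM, a 1131-fold change (log2 fold change 10.14 ± 0.12, adjusted p = 5.33e-16). Mup1 rose from 143, 150.2 and 152 to 12150.1, 10770.0 and 9170.5 CPM (log2 fold change 6.17 ± 0.10, adjusted p = 1.6e-14) and Mup10 from 558, 703 and 672 to 11680.3, 10185 and 8788 CPM (log2 fold change 3.99 ± 0.12, adjusted p = 4.54e-11). In the other direction, Mup14 fell from 1256, 1449 and 1349 to 28.2, 26.8 and 25.9 CPM (log2 fold change -5.65 ± 0.09, adjusted p = 1.6e-14) and Mup20 from 950.2, 1025 and 986 to 61.4, 51.4 and 49.4 CPM (log2 fold change -4.19 ± 0.08, adjusted p = 1.79e-13). Of 19 tested members 10 were higher and 5 lower. Reads of such genes can be assigned to the wrong copy: the longest transcripts of Mup1 and Mup14, which moved in opposite directions, were 99.2% identical, while Mup9 was 94.9% identical to Mup1 and Mup20 was 90.1% identical to Mup14. The reads of all 22 Mup genes were therefore summed. The sum was 13867, 15830.0 and 14833 CPM in WT AC and 45674, 41033 and 35092 CPM in KO AC, with no overlap (log2 fold change 1.45 ± 0.08, adjusted p = 7.31e-09). Changes of single copies are uncertain, and the summed level was higher.

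**Figure D5:**
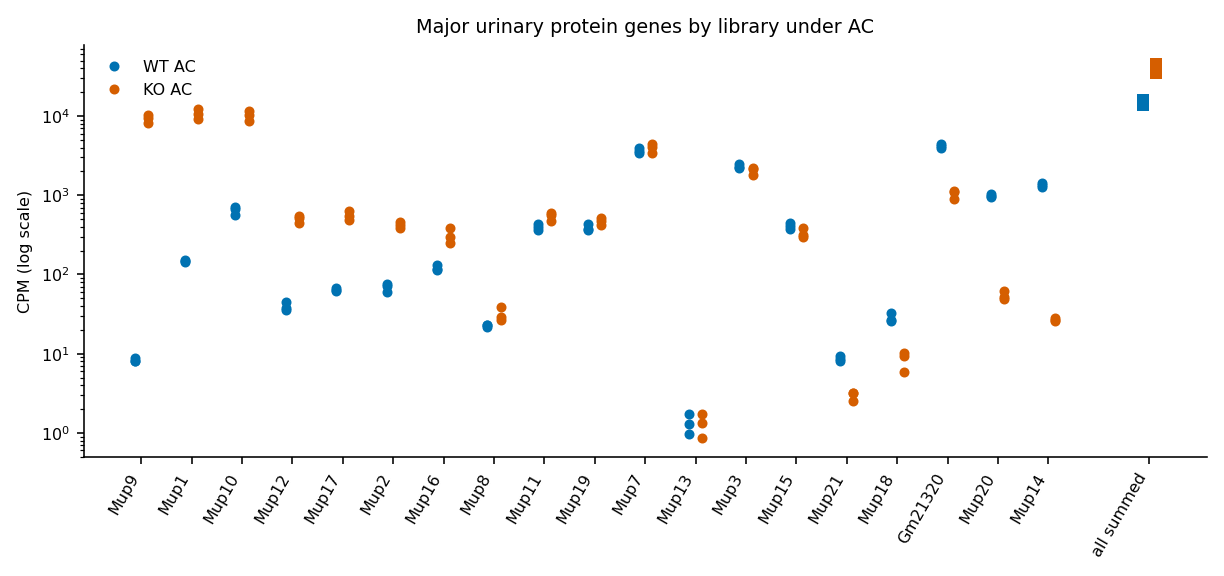
Level in CPM (log axis) of each tested Mup gene in the 3 WT AC (blue) and 3 KO AC (orange) libraries, ordered by fold change, and the sum of all 22 Mup genes at the right (squares). Mup9 and Mup1 were far higher and Mup14 and Mup20 far lower in KO AC, and the sum was higher in all 3 KO AC libraries.

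Drug-metabolising genes showed the highest median of the lists with at least 5 tested genes. Of 32 tested cytochromes P450 of families 1 to 3 and their reductase, 27 were higher and 2 lower, with a median log2 fold change of 2.14. Cyp2c38 rose from 0.164, 0.27 and 0.383 to 6.37, 6.37 and 6.11 CPM (22.5-fold, log2 fold change 4.49 ± 0.25, adjusted p = 1.08e-08). Cyp3a25 rose from 2.73, 2.65 and 2.41 to 38, 32.7 and 29.8 CPM (log2 fold change 3.69 ± 0.12, adjusted p = 4.54e-11), Cyp2f2 from 4.53, 4.38 and 4.49 to 52.4, 42.2 and 44.1 CPM (log2 fold change 3.37 ± 0.16, adjusted p = 2.21e-09) and Cyp2b10 from 0.872, 0.757 and 0.821 to 8.09, 8.03 and 8.14 CPM (log2 fold change 3.30 ± 0.15, adjusted p = 1.21e-09). The last is the standard target of the receptor Car (Nr1i3), which itself rose from 0.218, 0.108 and 0.109 to 1.49, 0.553 and 0.931 CPM (log2 fold change 2.71 ± 0.50, adjusted p = 0.000793). Members of every family were among the higher genes: Cyp1a2 (1.64), Cyp2e1 (2.68), Cyp2c29 (3.28), Cyp2d9 (2.14), Cyp3a11 (2.84) and the reductase Por (0.63). The lower members were Cyp2u1 (-1.39) and Cyp3a13 (-0.71), and Cyp1a1, the target of the aryl hydrocarbon receptor, was not called (0.30). Several of these genes have close relatives, and their single values carry the same uncertainty of assignment as the Mup genes.

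Conjugating enzymes rose in part, with 21 of 46 phase II transferases higher and 6 lower (median 0.23). The sulfotransferases Sult2a8 (0.709, 0.703 and 0.711 CPM in WT AC and 10.8, 7.91 and 8.32 CPM in KO AC; log2 fold change 3.66 ± 0.22) and Sult1a1 (1.09, 0.757 and 0.711 CPM in WT AC and 8.03, 8.58 and 7.85 CPM in KO AC; 3.25 ± 0.22) and the glucuronosyltransferases Ugt1a5 (3.39 ± 0.16) and Ugt3a1 (2.65 ± 0.10) rose most. The bilirubin-conjugating Ugt1a1 rose by 2.01. Ugt2b38 was lower (-2.37). Carboxylesterases split into 4 higher and 5 lower of 13 (median -0.06), with Ces1f (1.92 ± 0.20) and Ces1e (1.69 ± 0.14) higher and Ces1g (-1.83 ± 0.13) and Ces3b (-1.09 ± 0.08) lower. Of 29 alcohol, aldehyde and aldo-keto enzymes 13 were higher and 7 lower (median 0.21), among them Aldh1a7 (1.71 ± 0.22) and Akr1c20 (1.61 ± 0.36) higher. The lower members of this list numbered 3 without KO AC 2 or WT AC 2 and 4 without KO AC 3 or WT AC 3.

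Targets of the oxidative stress factor Nrf2 fell more often than they rose. Of 33 tested, 17 were lower and 4 higher (median -0.14). The cystine importer Slc7a11 fell from 1237, 768 and 867 to 265, 342 and 396 CPM (log2 fold change -1.52 ± 0.21, adjusted p = 0.000226), with no overlap and WT AC 1 the highest. The glutathione peroxidase Gpx2 fell from 2.84, 4.87 and 5.03 to 1.15, 0.775 and 0.989 CPM (log2 fold change -2.12 ± 0.40, adjusted p = 0.00107) and the carbonyl reductase Cbr3 from 48.3, 50 and 49.4 to 22, 23.4 and 22.2 CPM (log2 fold change -1.13 ± 0.11, adjusted p = 2.7e-06). Gclc (-1.02) and Gclm (-0.44), the subunits of the enzyme that limits glutathione synthesis, and the quinone reductase Nqo1 (-0.89) were also lower. The higher members were 3 genes of the glutathione transferase families, Gstm3 (0.66), Gstm2 (0.51) and Gsta4 (0.29), and the epoxide hydrolase Ephx1 (0.32). Nfe2l2, which encodes Nrf2, was not called (-0.07).

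Amino acid breakdown held several of the largest changes in the data. Of 38 tested genes 20 were higher and 6 lower (median 0.73). Hal, which starts histidine breakdown, read 1.04, 1.19 and 2.24 CPM in WT AC and 29.5, 54.1 and 44.9 CPM in KO AC (28.7-fold, log2 fold change 4.84 ± 0.31, adjusted p = 2.89e-07). Gnmt, which consumes S-adenosylmethionine with glycine, read 3.16, 2.81 and 2.95 CPM in WT AC and 96.1, 74 and 71.8 CPM in KO AC (27-fold, log2 fold change 4.76 ± 0.16, adjusted p = 9.27e-11), and Bhmt, which remethylates homocysteine from betaine, read 1.74, 2 and 1.7 CPM in WT AC and 52, 48.8 and 42.4 CPM in KO AC (26.2-fold, log2 fold change 4.71 ± 0.21, adjusted p = 1.59e-09). For each of these genes the lowest KO AC library was far above the highest WT AC library. Hpd of tyrosine breakdown rose from 4.31, 4.11 and 3.61 to 79, 78 and 66.6 CPM (log2 fold change 4.21 ± 0.14, adjusted p = 4.54e-11), and Haao of the kynurenine pathway from 0.436, 0.433 and 0.657 to 8.72, 7.64 and 7.45 CPM (log2 fold change 3.95 ± 0.21, adjusted p = 6.78e-09). Methionine adenosyltransferase Mat1a (1.32) and the glyoxylate enzyme Agxt (1.22) were higher. Acmsd (-1.31), Gpt2 (-0.82) and the branched-chain subunit Dbt (-0.77) were lower. Tdo2, which starts tryptophan breakdown, was not called (-0.24).

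The urea cycle, which disposes of the nitrogen, had 11 of 15 genes higher and 0 lower (median 0.54). Arginase, Arg1, rose from 1.69, 1.68 and 1.7 to 41.1, 44.2 and 36.9 CPM (24.1-fold, log2 fold change 4.59 ± 0.15, adjusted p = 4.54e-11), and its libraries were tightly grouped. Otc rose from 2.07, 2.6 and 2.08 to 11.4, 7.86 and 7.27 CPM (log2 fold change 1.97 ± 0.19, adjusted p = 3.02e-06), Cps1 from 5.23, 5.08 and 4.65 to 17.4, 16.4 and 13.3 CPM (log2 fold change 1.65 ± 0.14, adjusted p = 1.06e-06) and Ass1 from 123, 139.9 and 143 to 349, 389 and 365 CPM (log2 fold change 1.44 ± 0.08, adjusted p = 1.06e-08). Glutamine synthetase Glul was also higher (0.54).

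Of 26 genes of glucose handling 17 were higher and 2 lower (median 0.58). Pck1, the first committed enzyme of gluconeogenesis, rose from 0.164, 0 and 0.0547 to 2.93, 3.76 and 3.49 CPM (log2 fold change 5.41 ± 0.59, adjusted p = 1.01e-05), and Fbp1 by 1.15. The catalytic subunit of glucose-6-phosphatase, G6pc, was not called (0.70). The glycogen synthase Gys2 rose by 2.24 and the glucose carrier Slc2a2 by 1.93. Ketohexokinase Khk, the entry enzyme of fructose, was higher (2.08). The serine dehydratase Sds, which feeds pyruvate, rose from 0.218, 0.108 and 0.274 to 2.47, 2.05 and 2.21 CPM (log2 fold change 3.44 ± 0.31, adjusted p = 1.61e-06).

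Sterol and fat genes rose widely. Of 27 genes of cholesterol synthesis and Srebp2, 21 were higher and 1 lower (median 0.48), by modest amounts: the mevalonate enzymes Mvd read 8.56, 10.7 and 10.8 CPM in WT AC and 23.3, 23.1 and 21.7 CPM in KO AC (log2 fold change 1.18 ± 0.11, adjusted p = 1.5e-06) and Pmvk 15.4, 18 and 16.3 CPM in WT AC and 35.3, 34.6 and 31.3 CPM in KO AC (log2 fold change 1.03 ± 0.10, adjusted p = 3.12e-06). Fdps rose from 280.4, 353 and 329.6 to 589, 648 and 619 CPM (log2 fold change 0.95 ± 0.07, adjusted p = 3.61e-07) and the sterol reductase Tm7sf2 by 0.90 ± 0.09. Srebf2 itself was lower (-0.21). Of 32 genes of fatty acid and triglyceride synthesis, uptake and storage 18 were higher and 2 lower (median 0.48). The fatty acid receptor Cd36 had the largest change, from 1.47, 2.7 and 1.2 to 30.3, 19.6 and 24.2 CPM (13.7-fold, log2 fold change 3.78 ± 0.25, adjusted p = 7.97e-08). The carrier Fabp4 rose from 8.29, 10.2 and 8.54 to 51.2, 49.9 and 53.8 CPM (log2 fold change 2.52 ± 0.12, adjusted p = 2.37e-09), and the lipid droplet enzyme Pnpla3 from 0.654, 1.84 and 0.875 to 6.71, 5.98 and 6.98 CPM (log2 fold change 2.54 ± 0.38, adjusted p = 0.000198). Mogat1, which makes diacylglycerol, rose by 2.54 ± 0.49. The droplet proteins Cidea (2.41) and Cidec (2.03) and the desaturase Scd1 (1.61) rose, Fasn rose by 0.34, and Srebf1 was not called (0.09). Of 39 targets of Ppar alpha and genes of fatty acid oxidation 18 were higher and 2 lower (median 0.37). Acaa1b (1.97 ± 0.24), Creb3l3 (1.93) and Cyp4a14, which read 3.98, 4.49 and 3.5 CPM in WT AC and 15.8, 14.1 and 14.4 CPM in KO AC (log2 fold change 1.88 ± 0.12, adjusted p = 6.34e-08), led. Pdk4 read 8.62, 6.27 and 8.81 CPM in WT AC and 12.6, 25.7 and 18 CPM in KO AC, and Cpt1a, the entry enzyme of mitochondria, was not called (0.08).

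The called share of nuclear receptors and their coregulators was 38.9%, against 42.9% over all tested genes, and calls went in both directions. Of 36 tested, 7 were higher (among them Nr1i3, Rxrg, Nr1d1, Pparg, Esrra and Rara) and 7 lower (Nr2f2, Rarg, Rarb, Ncor1, Nr1d2, Nr3c1 and Thrb), with a median of -0.05, and the lower members numbered 4 without KO AC 1 or WT AC 1. Pparg, the driver of fat storage, read 7.69, 8.87 and 9.41 CPM in WT AC and 20.2, 16.9 and 16.7 CPM in KO AC (log2 fold change 1.05 ± 0.20, adjusted p = 0.000967), and Esrra rose by 0.60 ± 0.10. Nr2f2 fell from 5.07, 4.33 and 5.09 to 2.41, 1.55 and 2.27 CPM (log2 fold change -1.22 ± 0.18, adjusted p = 0.000164). The partner receptors Rxra (0.01) and Rxrb (-0.11), the oxysterol receptor Nr1h3 (-0.08), Pxr (Nr1i2, 0.04) and Lrh-1 (Nr5a2, -0.23) were not called. Calls were lost for Rxrg without KO AC 1 (adjusted p = 0.0546) or WT AC 2 (0.0506), for Nr3c1 without KO AC 1 (0.0762), WT AC 1 (0.0952) or WT AC 3 (0.064), and for Thrb without KO AC 1 (0.0939), KO AC 3 (0.0522) or WT AC 1 (0.155). The call of Rarb (adjusted p = 0.0439) was lost without any 1 of the 6 libraries. Without WT AC 1 the log2 fold change of Ncor1 was -0.33 against -0.49 with it, and that of Thrb was -0.26 against -0.42. The factors that define hepatocytes were called in 31.6%: of 19 tested, 2 were higher (Creb3l3 and Foxa3) and 4 lower (Klf15, Onecut2, Cebpa and Atf5). Hnf4a (-0.26), Foxa1 (-0.05) and Foxa2 (-0.33) were not called. Creb3l3, a factor of the fasting response, read 31.5, 39.7 and 43.2 CPM in WT AC and 158, 148 and 128 CPM in KO AC (log2 fold change 1.93 ± 0.23, adjusted p = 7.55e-05), and Klf15 fell (log2 fold change -1.37 ± 0.30). Calls were lost for Cebpa without KO AC 2 (0.0689), KO AC 3 (0.0693) or WT AC 3 (0.062) and for Onecut2 without KO AC 1 (0.0607) or WT AC 1 (0.0577). Without WT AC 1 the log2 fold change of Onecut2 was -0.29, against -0.51 with it.

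Chaperones of the endoplasmic reticulum rose widely, with 16 of 21 higher and 0 lower (median 0.41). Sdf2l1 (10.3, 10.9 and 9.36 CPM in WT AC and 32, 29.3 and 23.6 CPM in KO AC; 1.47 ± 0.11 on the log2 scale) and Creld2 (26.2, 28.7 and 25.2 CPM in WT AC and 76.3, 65.5 and 63.2 CPM in KO AC; 1.36 ± 0.08) rose most, followed by Pdia6 (1.05 ± 0.06), a disulfide isomerase, and Dnajb9 (1.03 ± 0.08). The master chaperone Hspa5 rose by 0.45, and Xbp1 was not called (0.01). The integrated stress response was split, with 8 of 24 higher and 6 lower (median 0.13). The factor Atf3 (31.5, 33.9 and 34.5 CPM in WT AC and 47.4, 115 and 98.5 CPM in KO AC), where KO AC 1 was closest to wild type, and the phosphatase subunit Ppp1r15a (1.14 ± 0.15) were higher. The serine synthesis enzymes Phgdh (69.6, 69.7 and 75.3 CPM in WT AC and 25.5, 25.1 and 28.3 CPM in KO AC; log2 fold change -1.44 ± 0.07, adjusted p = 2.72e-09), Psat1 (-1.02) and Psph (-0.93) were lower together. In the cytosol, 4 of 16 heat-shock genes were higher and 6 lower (median -0.04). Hsp90aa1 fell from 1449.7, 1191 and 1217 to 782, 670.2 and 743 CPM (log2 fold change -0.81 ± 0.09, adjusted p = 8.94e-06), and Hspb8 rose by 0.63 ± 0.07. Hspa1a and Hspa1b, near-identical inducible Hsp70 genes, rose by 0.90 ± 0.23 and 1.09 ± 0.15, and their summed reads by 1.06 ± 0.14 (adjusted p = 6.95e-05).

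Immediate-early factors were higher in 13 of 26 and lower in 2 (median 0.49). Fos read 4.09, 5.3 and 4.1 CPM in WT AC and 13.2, 16.5 and 17 CPM in KO AC (log2 fold change 1.79 ± 0.16, adjusted p = 1.61e-06), the mRNA-decay factor Zfp36 19, 21.7 and 21.8 CPM in WT AC and 45.4, 73.6 and 57.9 CPM in KO AC (log2 fold change 1.5 ± 0.17, adjusted p = 2.7e-05), and Ier3 rose by 1.23 ± 0.32, a call lost without WT AC 1 (0.0501). Egr1 was not called (-0.02). Targets of the tumour suppressor Trp53 had 9 of 27 higher (5 without WT AC 2) and 2 lower (median 0.14), led by Btg2 (1.05 ± 0.14) and Cdkn1a, the cell cycle inhibitor, which read 262, 285 and 300.4 CPM in WT AC and 483, 558 and 499.5 CPM in KO AC (log2 fold change 0.86 ± 0.08, adjusted p = 1.1e-06). The called share of this list was 40.7%, against 42.9% over all tested genes. Gadd45a (0.57 ± 0.18) was 0.31 without KO AC 2 (adjusted p = 0.0983), and also lost its call without WT AC 1 (0.0756) or WT AC 2 (0.0822) and with limma on log2(FPKM + 1) (0.0608). Sesn1 (adjusted p = 0.0414) lost its call without any library but KO AC 1, and with limma on log2(FPKM + 1) (0.0583). Clock genes had 7 of 21 higher (11 without KO AC 1) and 3 lower (47.6% called, median 0.25). The repressor Bhlhe41 rose from 1.96, 1.68 and 2.24 to 6.02, 14.9 and 10.2 CPM (log2 fold change 2.40 ± 0.34, adjusted p = 0.000157), Per1 from 11.7, 11.2 and 11.2 to 16.9, 37.7 and 37.6 CPM (log2 fold change 1.44 ± 0.30, adjusted p = 0.00298), Nr1d1 from 8.83, 8.33 and 9.03 to 14.3, 22.2 and 18.4 CPM (log2 fold change 1.07 ± 0.16, adjusted p = 0.000163) and Npas2 by 1.06 ± 0.27. Arntl rose by 0.27, and Clock fell (-0.50).

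Interferon-stimulated genes were higher in 25 of 39 and lower in 2 (median 0.57). Ifit3 read 2.56, 2.38 and 2.57 CPM in WT AC and 9.18, 15.8 and 17.5 CPM in KO AC (log2 fold change 2.49 ± 0.29, adjusted p = 2.85e-05), and its near-copy Ifit3b 1.74, 1.08 and 1.7 CPM in WT AC and 4.82, 6.59 and 7.74 CPM in KO AC (log2 fold change 2.08 ± 0.31, adjusted p = 0.000161). Oasl2 rose from 19.8, 13.4 and 19 to 38.5, 48.3 and 56.9 CPM (log2 fold change 1.46 ± 0.18, adjusted p = 3.48e-05), Zbp1 from 13.9, 13.8 and 16 to 32.6, 38.1 and 41.9 CPM (log2 fold change 1.37 ± 0.12, adjusted p = 1.5e-06), and Isg15 (1.22) and Irf7 (0.94) were higher. In the FAC libraries the same list had 14 higher and 6 lower, with a median of 0.08, and the difference of the lists was not tested. In class I antigen presentation 14 of 27 genes were higher and 6 lower (median 0.23), with a split inside the list. The light chain B2m fell from 2722, 2852 and 2803 to 1644, 1710.3 and 1633 CPM (log2 fold change -0.75 ± 0.06, adjusted p = 6.95e-07). The heavy chains H2-K1 (-0.47), H2-D1 (-0.62), H2-Q7 (-0.96 ± 0.13) and H2-Q1 (-1.52 ± 0.11) were lower. The liver-secreted H2-Q10 rose (336, 370.3 and 331 CPM in WT AC and 726, 539 and 578 CPM in KO AC; 0.83 ± 0.10), as did the peptide pump Tap1 (0.51) and the immunoproteasome genes Psmb8 (0.47) and Psmb9 (0.47). Class I heavy chains are similar in sequence, and their split of reads is uncertain.

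Of 41 cytokine, chemokine and NF-kB feedback genes 5 were higher and 6 lower, and 30 were not called (median 0.21). The called share was 26.8%, against 42.9% over all tested genes. Ccl4 fell from 2.62, 2.06 and 2.13 to 0.344, 0.277 and 0.349 CPM (log2 fold change -2.79 ± 0.39, adjusted p = 8.72e-05), and the prostaglandin synthase Ptgs2 fell (-1.87 ± 0.41). The inflammatory cytokine Il1b was lower (-1.60 ± 0.48), a call lost without KO AC 3 (adjusted p = 0.0589) and with limma on log2(FPKM + 0.1) (0.075). Macrophages make all of these, and the 19 macrophage markers summed to 14.1 to 18.7 CPM in WT AC and 1.80 to 3.38 CPM in KO AC; their part in these changes was not tested. The interferon-induced chemokine Cxcl9 rose from 33, 29.1 and 29.1 to 110.5, 99.6 and 87 CPM (log2 fold change 1.70 ± 0.10, adjusted p = 1.58e-08).

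Matrix genes were lower in 16 of 37 and higher in 7 (median -0.32). The largest change was in Itgb6, an epithelial integrin chain, which fell from 8.78, 8.49 and 10.6 to 0.115, 0.0553 and 0.116 CPM (log2 fold change -6.51 ± 0.31, adjusted p = 1.67e-08). The fibrillar collagens Col1a1, Col1a2 and Col3a1 were given with the stellate markers, and Col5a2 had 36 reads against 2 (ratio 17.2, 95% counting interval 4.43 to 148). The stellate markers other than Ecm1 summed to 18.6 to 22.4 CPM in WT AC and 8.78 to 8.90 CPM in KO AC, and their part in the collagen change was not tested. Fibronectin Fn1 fell by 0.65 on the log2 scale, and laminin Lamb2 rose (1.96). Of 43 cytoskeletal genes that rise as hepatocytes lose their character in culture 16 were higher and 10 lower (median 0.22). Spp1 fell as given above, the myosin light chain Myl9 fell (-1.42 ± 0.33) and filamin Flna fell from 896, 848 and 868 to 454, 479 and 588 CPM (log2 fold change -0.78 ± 0.08, adjusted p = 6.23e-06). The calcium-binding S100a4 (1.82 ± 0.27), the actins Actb (0.30) and Actg1 (0.50) and the keratins Krt8 (0.34) and Krt18 (0.43) rose. Vimentin Vim was not called (0.11).

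Cell cycle and replication genes were lower in 16 of 34 and higher in 2 (median -0.42). Cyclin Ccna2 fell from 1.36, 1.14 and 1.75 to 0.115, 0.332 and 0.233 CPM (log2 fold change -2.60 ± 0.45, adjusted p = 0.000446), the topoisomerase Top2a from 2.78, 1.51 and 1.37 to 0.746, 0.609 and 0.407 CPM (log2 fold change -1.67 ± 0.38, adjusted p = 0.00325) and cyclin Ccnd2 from 7.69, 5.08 and 4.82 to 1.95, 1.16 and 1.86 CPM (log2 fold change -1.82 ± 0.25, adjusted p = 7.66e-05). Mcm2 (-1.24), Mcm4 (-1.22) and Mcm5 (-1.16) of the replication helicase were lower. The call of thymidine kinase Tk1 (-1.68 ± 0.53, adjusted p = 0.0211) was lost without KO AC 2 (0.0765), KO AC 3 (0.0681) or WT AC 3 (0.0784), and without KO AC 1 the Tk1 log2 fold change was -2.81. Cytosolic ribosomal protein genes were lower in 32 of 56 and higher in 0 (median -0.20), with Rpl3 (1106, 1234 and 1209 CPM in WT AC and 785, 847 and 790.1 CPM in KO AC; log2 fold change -0.55 ± 0.06, adjusted p = 1.18e-05), Rpl12 (-0.44 ± 0.07), Rpl18 (-0.41 ± 0.06) and Rps4x (-0.40 ± 0.06) the most. Subunits of oxidative phosphorylation were higher in 15 of 52 (7 without KO AC 1 or without WT AC 1) and lower in 4, with a median of 0.11 (-0.04 on the TPM scale), led by Ndufb9 (0.60 ± 0.10), Cox6c (0.49 ± 0.08), Cox7c (0.47 ± 0.07) and Cox6a1 (0.45 ± 0.08). Of these subunits 36.5% were called, against 42.9% over all tested genes. Of 16 metallothionein and zinc carrier genes 4 were higher and 3 lower (43.8% called, median 0.03, of the other sign in 3 scalings). The importer Slc39a4 fell from 307, 317 and 315 to 193, 191 and 205 CPM (log2 fold change -0.67 ± 0.11, adjusted p = 0.000492) and Slc39a6 rose by 0.59 ± 0.11. Slc39a1 was higher (0.32 ± 0.09) and lost its call with limma on log2(TPM + 1) (0.085). Mt1 (adjusted p = 0.0249) lost its call without KO AC 2 (0.0972), KO AC 3 (0.0691), WT AC 1 (0.101) or WT AC 2 (0.054), and with limma on log2(FPKM + 1) (0.0557).

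Among well expressed genes (mean FPKM of at least 5 in a group, no overlap) the 12 with the largest rise were Mup9, Tdg-ps, Hamp2, Mup1, Hal, Gnmt, Bhmt, Arg1, Hpd, Mup10, Haao and Pgf. Tdg-ps, a pseudogene of the DNA repair gene Tdg, went from 0.218, 0.0541 and 0.0547 to 15.7, 16.9 and 14.3 CPM (log2 fold change 7.07 ± 0.25, adjusted p = 1.23e-10). Pseudogene reads may belong to other copies. The placental growth factor Pgf rose from 2.18, 2.87 and 3.94 to 30.5, 50 and 47.4 CPM (log2 fold change 3.83 ± 0.25, adjusted p = 1.62e-07). The 12 with the largest fall were Mug2, Gm16867, Mup14, Olfr1033, Mup20, Cdh17, Sema3e, Clec4d, Spp1, Abcc4, Fgf13 and Slpi. Murinoglobulin Mug2, a plasma protease inhibitor, fell from 105, 106 and 109 to 1.32, 1.55 and 1.22 CPM (77.7-fold, log2 fold change -6.28 ± 0.13, adjusted p = 5.44e-13). Its relative Mug1 rose from 448, 436 and 433 to 627, 768 and 769.7 CPM. The odorant receptor gene Olfr1033 fell from 386, 371 and 371 to 14.6, 16.8 and 13.9 CPM (log2 fold change -4.64 ± 0.16, adjusted p = 4.35e-10) and the predicted gene Gm16867 was lower (-5.82 ± 0.35). The cadherin Cdh17 fell from 43, 35.3 and 37.9 to 2.52, 1.77 and 3.26 CPM (log2 fold change -3.94 ± 0.18, adjusted p = 9.97e-10), the guidance molecule Sema3e from 61.9, 51.6 and 54.8 to 2.24, 4.7 and 4.65 CPM (log2 fold change -3.86 ± 0.21, adjusted p = 1.53e-08) and the protease inhibitor Slpi from 1104, 1175 and 1194 to 187, 248 and 234 CPM (log2 fold change -2.38 ± 0.21, adjusted p = 1.09e-05). Clec4d, a lectin receptor of myeloid cells, fell (-2.92 ± 0.16), as did Fgf13 (-2.46 ± 0.21). For all 24 genes the groups were separated by selection, so their separation is no further evidence.

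Genes near Nr1h4 on chromosome 10 were counted apart. Within 5 Mb of the Nr1h4 start 54 genes were tested, of which 17 were higher and 13 lower, or 55.6% against 42.9% over all genes and 46.7% over chromosome 10. A change of at least 2-fold was called for 10 of them (18.5% against 10.2%). The difference of these shares was not tested, and the highest autosomal share was 50.2%, on chromosome 6. Gas2l3, 45.4 kb from the Nr1h4 start, read 8.72, 6.27 and 7.5 CPM in WT AC and 23.6, 29.3 and 34.4 CPM in KO AC (log2 fold change 1.96 ± 0.18, adjusted p = 2.28e-06). The glutamate carrier Slc17a8, 119.8 kb away, rose from 0.382, 0.162 and 0.438 to 0.803, 1.16 and 1.45 CPM (log2 fold change 1.78 ± 0.44, adjusted p = 0.00571). Dram1, an autophagy gene, fell from 6.43, 7.52 and 7.17 to 1.78, 1.38 and 1.69 CPM (log2 fold change -2.12 ± 0.17, adjusted p = 6.05e-07). Spic, the factor of red pulp macrophages, had 58 reads in WT AC and 1 in KO AC (ratio 55.5, 95% counting interval 9.57 to 2230). The 19 macrophage markers other than Cd68 and Slc40a1 summed to 14.1 to 18.7 CPM in WT AC and 1.80 to 3.38 CPM in KO AC. The part of macrophages in the fall of Spic was not tested. The meiotic gene Sycp3 had 0 reads in WT AC and 29 in KO AC, at least 10.1-fold higher. Hal, the largest change of amino acid breakdown, also lies in this window.

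The comparison of genotypes was measured a second time in the FAC libraries, which share no library with it. The labels do not say whether AC and FAC cultures came from the same animals, and both comparisons use 1 estimate of the spread. A difference between the mice or cells of the genotypes other than Fxr could recur under FAC, so a repeated call does not separate it from Fxr loss. There 6071 genes (49.5%) were called. Of the 5265 genes called under AC, 3852 were called in the same direction under FAC (73.2% of the AC calls and 63.4% of the FAC calls) and 54 in the opposite one. Of the 1253 genes with at least a 2-fold change 1044 (83.3%) were called again in the same direction. The difference of the genotype effects between the treatments was called for 387 genes (3.15%), 242 of them called under AC. This count moved by over 1.5 times without most single libraries: to 591 without KO AC 1, 190 without KO AC 2, 176 without KO AC 3, 138 without WT AC 2, 93 without WT AC 3, 656 without KO FAC 4, 169 without KO FAC 5, and 136, 148 and 147 without WT FAC 4, 5 and 6. Log2 fold changes under AC and FAC were 10.14 and 9.93 for Mup9, 4.76 and 5.05 for Gnmt, 4.59 and 4.50 for Arg1, 3.69 and 3.82 for Cyp3a25, -6.28 and -5.72 for Mug2, and -0.81 and -0.75 for Nr1h4. For Abcb11 the log2 fold change was -1.48 under AC and -0.37 under FAC, and for Hamp the values were -0.54 and 2.59. Both differences between treatments were called, as they were for a further 13 named genes.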

How the data were processed

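RNA was sequenced in 12 libraries for a BGISEQ-500, per the labels' protocols, and the submitters' processing notes name RSEM, mm10 and GRCm38.p6. The aligner, annotation, strand setting and versions are not given in the sources used here. Per the file headers, the authors deposited estimated counts per gene without normalization, FPKM values scaled by gene length and depth, and TPM values. The table held 16728 genes, of which 16629 matched RefSeq identifiers. Of 28 symbols turned into dates or numbers, 22 were restored.

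Rounded counts were scaled by TMM and analysed in R 4.3.3 with edgeR 4.0.16. Genes passed filterByExpr (minimum count 10), which left 12275. A robust quasi-likelihood model with trended dispersion was fitted to all 4 groups, so they share 1 estimate of the spread (biological coefficient of variation 10.8%), and KO AC was compared with WT AC. Benjamini-Hochberg adjustment ran over the 12275 genes, with a call at an adjusted p under 0.05. The SE is the absolute log2 fold change divided by the square root of the F statistic. CPM carry the TMM factors. Library totals of 16464494 to 18335700 reads limit genes of a few reads, whose counting intervals cover counting error only. An exact permutation test of 3 against 3 libraries cannot go below 0.1 and was not used.

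Named are 16 fixed genes, the 12 called genes with the largest rise and the 12 with the largest fall among genes reaching a mean FPKM of 5 in a group, up to 4 called members with the largest change in each list with at least 3 called members and up to 2 well expressed members of other lists, up to 6 genes within 5 Mb of Nr1h4, and the called transcription factor genes. A few genes that this rule names are not reported here. Other list members are named as examples chosen after their values were seen. The members, 48 lists and this rule were chosen with earlier results of these data known. In simulated data only a small part of the 12275 genes was changed in KO AC. The test recovered 65.7% of them at a 1.5-fold change, 80.6% at 2-fold and 97% at 4-fold, and 4.14% of its calls were false. In the real data 42.9% of the genes were called, so these rates may not hold there. Alternatives were limma 3.58.1 on log2(FPKM + 1), log2(FPKM + 0.1) and log2(TPM + 1), DESeq2 1.42.0, other scalings and filters, the 6 AC libraries alone, no trend, a replicate block and each library left out. Sums of near-identical genes were added after the data were seen. The AC libraries gave no sign that the replicate numbers pair the samples, though 3 libraries per group cannot exclude it.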

Additional observations from a re-analysis of the deposited data

Results flagged for a closer look

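The interaction test of edgeR called 15 of the 215 named genes at an adjusted p under 0.05, against 3.15% of all tested genes. For these 15 the main edgeR fit called the effect of Fxr loss different between the AC and the FAC libraries. Whether each of these calls holds in the alternatives is not reported here. Over all genes the 387 such calls became 678 with DESeq2, 84 with the replicate block and 93 without WT AC 3. Most named genes were chosen for their changes under AC, which enter this test, so the shares cannot be compared. Each value below is the log2 fold change of KO over WT under FAC minus that under AC. Of the bile acid genes, the difference was 1.11 for Abcb11 (-1.48 under AC, -0.37 under FAC, adjusted p = 0.0392), 1.14 for Slc10a1 (1.99 and 3.13) and 2.21 for Fgfr4 (1.09 and 3.29). It was 3.14 for Hamp (-0.54 and 2.59, adjusted p = 0.0215), whose effect under AC alone was not called. The difference was also positive for the secreted and urea cycle genes Fga (0.98), Spp1 (0.76) and Cps1 (1.18). The same held for the serine synthesis enzyme Phgdh (0.94), the endoplasmic reticulum gene Creld2 (1.09), Dram1 near Nr1h4 (1.11) and the retinoic acid receptors Rarb (3.21) and Rarg (0.66). A positive difference can also be a smaller fall. Spp1 was lower in KO under both treatments (-2.79 under AC and -2.03 under FAC). Phgdh (-1.44), Rarg (-0.85) and Dram1 fell under AC by more than their differences. Rarb was lower in KO AC (-0.78) and higher in KO FAC (2.43). The differences were negative for Hspa1b (-3.01), Hspa1a (-3.51) and Ugt3a1 (-0.82). The effects on Hspa1b were 1.09 under AC and -1.92 under FAC.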

How the results depend on the processing

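The 5265 calls of Fxr loss under AC stayed within 1.5 times under every alternative, from 3722 (a filter of FPKM at least 5 in 3 libraries, which left 8046 genes to test) to 5661 (limma on log2(TPM + 1)). With a library left out they ranged from 4144 (without WT AC 1) to 5045 (without KO AC 1). DESeq2 called 5220 genes, the fit of the 6 AC libraries alone 4931 and the test with no filter 5105. Of the 5265 genes, 3575 were called in the same direction with the FPKM filter, 4042 without WT AC 1 and 4365 with limma on log2(TPM + 1). The 1253 calls of at least 2-fold fell to 453 with a filter of FPKM at least 5 in 3 libraries, to 458 with limma on log2(FPKM + 1) and to 532 on log2(TPM + 1), and ranged from 1082 to 1244 with a library left out. The share of called genes that were higher was 50.7%, against 37.9% with limma on log2(FPKM + 1), 38.2% on log2(FPKM + 0.1) and 32.2% on log2(TPM + 1), where the median of all genes was -0.0665, -0.088 and -0.109. The 387 genes called for the difference between FAC and AC became 678 with DESeq2 and 84 with the replicate block, and ranged from 93 (without WT AC 3) to 656 (without KO FAC 4); the cause was not tested. Same-numbered AC libraries correlated at -0.142, -0.0856 and 0.00809, and no AC library correlated best with its own number. This gave no sign that the numbers pair the samples, but with 3 libraries per group it cannot exclude pairing. The FAC libraries were not checked. With the replicate number as a block, 4670 genes were called under AC (2416 higher, 2254 lower). No called named gene changed direction, and 20 of 205 lost the call under at least 1 alternative. Counts and medians of lists moved by more than the limits in 114 of 846 cases with a library left out and in 223 of 1551 other cases. Few reads limited Cyp7a1, Slc51b, Nr0b2 and the immune cell markers.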

Other observations

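A few genes outside the naming rule, chosen after their values were seen, may be of use for judging how alike the mice were apart from Fxr. Nnt, the mitochondrial transhydrogenase, is known to carry an internal deletion in the substrain C57BL/6J, and the labels name the strain only as C57BL/6. It read 15.1, 17.1 and 15.3 CPM in WT AC and 40.3, 32 and 31.9 CPM in KO AC (log2 fold change 1.13, edgeR adjusted p = 2.57e-05). Wdfy1, a protein of endosomes, read 23.1, 19 and 21.3 CPM in WT AC and 119, 135 and 132 CPM in KO AC (2.60). Entpd4b, one of a pair of near-identical copies of a Golgi nucleotidase, read 60.7, 67 and 64 CPM in WT AC and 29.7, 24.8 and 29.6 CPM in KO AC (-1.19). Cyp4a12b, an androgen-dependent enzyme of male mouse liver, read 5.02, 5.63 and 4.38 CPM in WT AC and 0.229, 0.0553 and 0.0582 CPM in KO AC (-5.37), and its near-copy Cyp4a12a read 18.7, 20 and 15.9 CPM in WT AC and 13.1, 13.9 and 11.6 CPM in KO AC (-0.50). Cyp2b9 and Cyp2a4, which are typical of female mouse liver, were higher in KO AC (2.47 and 2.89). Genes typical of one sex were picked by hand here and not examined as a list. Their values therefore give no direction for such genes as a group. The Y-linked genes Ddx3y (88, 45 and 53.8 CPM in WT AC and 31.6, 35.6 and 37.8 CPM in KO AC) and Eif2s3y (62.5, 52.2 and 55 CPM in WT AC and 75.1, 69.4 and 69 CPM in KO AC) had reads in all 6 libraries. The steroid hydroxylase Cyp17a1 rose from 0.327, 0.325 and 0.109 to 7.06, 6.42 and 3.96 CPM (4.48). What lies behind these values was not tested.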
